A study of Mus musculus with 2 samples.

Results

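The 4 Hox clusters of the mouse hold a small set of microRNA genes, Mir10a, Mir10b, Mir196a-1, Mir196a-2, Mir196b and Mir615, and their levels were examined in the embryonic mouse midbrain at day 12.5. The 6 genes were taken by symbol from the 1973 microRNA genes of the count tables. Small RNA below 30 nucleotides was sequenced in 2 libraries of 1 group, healthy B6NCrl midbrain tissue with male and female embryos mixed. Midbrains of 88 embryos were pooled for replicate 2 and of 120 for replicate 1, so each library averages over many animals. No treatment, mutant or other tissue was compared, and the comparisons are between genes and between the replicates.

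Hox genes are transcription factor genes that give cells their position along the head-to-tail axis. Within a cluster, genes towards the 3′ end (low numbers) are switched on in more anterior tissue and genes towards the 5′ end (high numbers) in more posterior tissue. In the neural tube their expression reaches forward into the hindbrain, and the midbrain lies in front of that limit. The microRNAs between them are generally transcribed with the neighbouring Hox genes and are known to act on Hox messages; in the mouse, miR-196 directs cleavage of the Hoxb8 message.

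The mature sequences show which of these genes the counts can tell apart. Those of the 5′ arm (5p) are given below from RefSeq on GRCm38.p6, 5′ to 3′, with both arms for Mir615; capitals mark the seed, bases 2 to 8, which pairs with target messages.
miR-10a-5p: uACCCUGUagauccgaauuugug
miR-10b-5p: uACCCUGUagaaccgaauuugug
miR-196a-5p: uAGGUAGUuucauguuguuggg
miR-196b-5p: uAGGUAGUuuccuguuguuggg
miR-615-5p: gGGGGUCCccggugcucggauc
miR-615-3p: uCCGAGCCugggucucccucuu

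The 5p forms fall into 2 pairs that share a seed, and the 6 genes therefore make 3 sequence groups. Counted from the 5′ end, miR-10a-5p and miR-10b-5p differ at 1 of 23 bases (U12A), and miR-196a-5p and miR-196b-5p at 1 of 22 (A12C). Each of these seeds belongs to 2 of the 1679 mature names in the RefSeq table, that is to the pair itself. Both seeds of Mir615 belong to 1 name each. The counts were made per gene, so reads of the 5′ and 3′ arms are summed.

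Mir196a-1 and Mir196a-2 encode the same miR-196a-5p. Their hairpins are shown because they set what could be counted; capitals mark the longest run they share, 22 bases, which is the mature 5p form.
Mir196a-1: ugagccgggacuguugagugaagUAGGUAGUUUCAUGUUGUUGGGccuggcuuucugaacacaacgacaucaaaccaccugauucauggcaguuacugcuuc
Mir196a-2: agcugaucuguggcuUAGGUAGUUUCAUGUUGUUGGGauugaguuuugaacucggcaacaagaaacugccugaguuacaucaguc

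A read of exactly this run aligns to both places, and reads that aligned to several places were assigned to no gene. Such reads made up 33.4% of all reads in each library, and the part of them that was miR-196a-5p is not known here. Of the windows of 20 bases in the hairpins of Mir10a, Mir10b, Mir196b and Mir615, 0 occur in another annotated microRNA gene at a different place. Annotated microRNA genes that overlap a member were left out, and the rest of the genome was not searched. This covers exact matches only, and the mismatches allowed in the alignment are not known here. Mir196a-1 and Mir196a-2 share 3 such windows with each other. The counts of these 2 genes can hold only reads that reach beyond the shared run or come from another part of the hairpin.

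On mm10, the genes keep the order of the clusters. Mir10a (ENSMUSG00000065519.1, chr11:96317165-96317274, plus strand) lies between Hoxb5 and Hoxb4, 993 bases before the annotated start of Hoxb4. It is outside annotated transcripts of Hox and microRNA genes on its own strand. Transcripts of other genes or on the other strand were not searched. Mir10b (ENSMUSG00000065500.2, chr2:74726070-74726137, plus strand) lies between the ends of Hoxd8 and Hoxd4, in introns of Hoxd3 and Hoxd4 transcripts. Mir615 (ENSMUSG00000076010.1, chr15:103014910-103015001, plus strand) lies in an intron of Hoxc5. These are the 3 genes on the anterior side.

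The Mir196 genes lie on the posterior side, next to the paralogues numbered 9. Mir196b (ENSMUSG00000065443.1, chr6:52230081-52230165, minus strand) lies between Hoxa10 and the end of Hoxa9 and overlaps an exon of a Hoxa9 transcript. Mir196a-2 (ENSMUSG00000065488.1, chr15:102973350-102973434, plus strand) lies between Hoxc10 and Hoxc9, in an intron of a long Hoxc5 transcript. Mir196a-1 (ENSMUSG00000065546.1, chr11:96265164-96265265, plus strand) lies between Hoxb13 and Hoxb9, outside annotated transcripts of Hox and microRNA genes on its own strand. Of the 1973 genes of the count tables, 1894 could be placed by the annotation. These 6 are all of the placed genes that lie between the outermost Hox genes of a cluster.

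**Figure D1:**
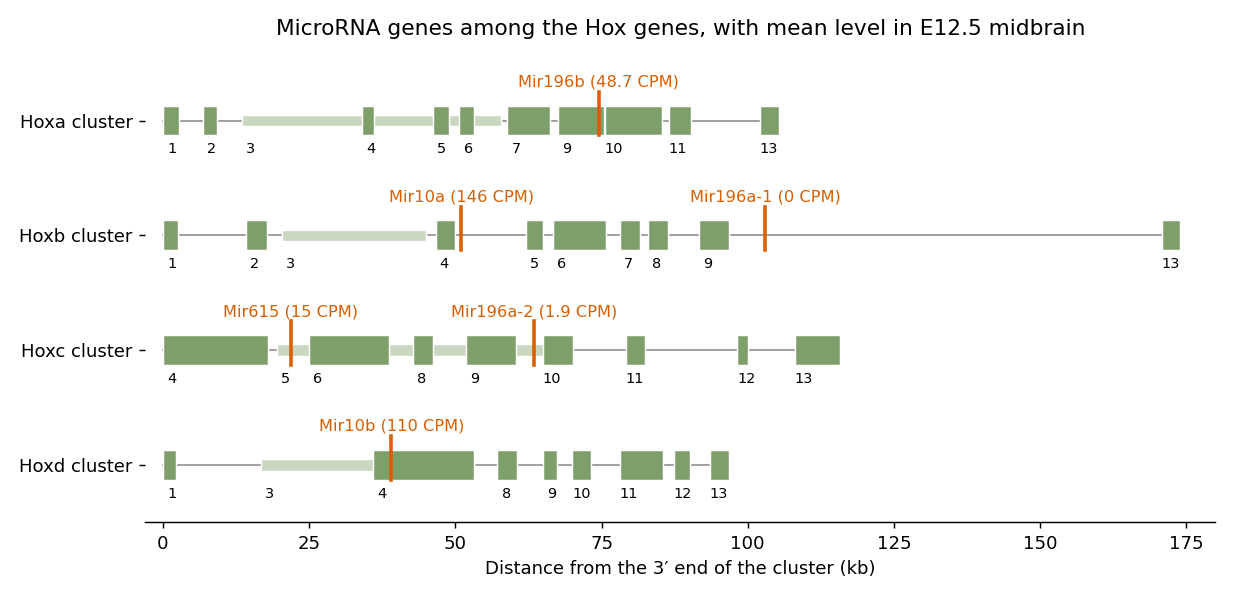
Map of the 4 Hox clusters, each drawn from its 3′ end (anterior genes) at 0 kb to its 5′ end. Green boxes are annotated Hox genes with their numbers (pale and thin where the annotation spans over 20 kb), and orange lines are the microRNA genes with their mean CPM over 2 libraries; Mir10a (146 CPM) and Mir10b (110 CPM) have the highest values among assigned reads and stand beside the genes numbered 4.

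Among assigned reads, Mir10a, Mir10b, Mir196b and Mir615 were scarce in the midbrain libraries, and those beside the Hox genes numbered 4 were the highest of the 4. The level of miR-196a is not known from these counts. Together the 6 genes had 1175 reads of 2805487 assigned to microRNA genes in replicate 2 and 1043 of 4629302 in replicate 1. In counts per 1000000 assigned reads on the gene's own strand (CPM), that is 419 CPM in replicate 2 and 225 CPM in replicate 1, or 322 ± 137 CPM (SD, n = 2). In these bulk samples, fewer cells of a type and less RNA per cell cannot be told apart. The values are relative abundances among assigned reads. Levels of different genes are compared as reads, without division by length, because the mature forms listed for the 6 genes are 22 or 23 bases long. Whether different sequences were captured equally well is not known here, so folds between genes are folds of reads.

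The Mir10 genes gave most of the reads. Mir10a had 538 reads in replicate 2 and 467 in replicate 1. Its level was 192 CPM in replicate 2 (95% exact Clopper-Pearson interval 176 to 209 CPM) and 101 CPM in replicate 1 (91.9 to 110 CPM). This placed Mir10a at rank 193 by mean level among the 1973 genes, of which 746 had a read in at least 1 library.

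Mir10b had 414 reads in replicate 2 and 337 in replicate 1, or 148 CPM (134 to 162 CPM) and 72.8 CPM (65.2 to 81.0 CPM). Its rank was 216. Mir10a was thus read 1.30 times as often as Mir10b in replicate 2 and 1.39 times as often in replicate 1, while the ranges of the 2 genes over the libraries overlapped. Both Mir10 genes stood higher in replicate 2.

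Mir196b had 164 reads in replicate 2 and 180 in replicate 1. Its level was 58.5 CPM in replicate 2 (49.9 to 68.1 CPM) and 38.9 CPM in replicate 1 (33.4 to 45.0 CPM), at rank 256. Both values lay below the lowest value of Mir10b. Mir196b is the member of its seed group that can be counted without the shared 5p run.

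Mir615, in the Hoxc5 intron, had 52 reads in replicate 2 and 53 in replicate 1. Its level was 18.5 CPM in replicate 2 (13.8 to 24.3 CPM) and 11.4 CPM in replicate 1 (8.58 to 15.0 CPM), at rank 312. On the anterior side of the clusters, it was much lower than the Mir10 genes and also lower than the posterior Mir196b, so among the genes with unshared sequence the position along the cluster did not order the levels.

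Mir196a-2 had 7 reads in replicate 2 and 6 in replicate 1, or 2.50 CPM (1.00 to 5.14 CPM) and 1.30 CPM (0.476 to 2.82 CPM). Mir196a-1 had 0 reads in both libraries, and the limit of 3 counts used for a gene with no reads stands at 1.07 CPM in replicate 2 and 0.648 CPM in replicate 1. The upper ends of the 95% exact Clopper-Pearson intervals are 1.31 and 0.797 CPM. These limits apply to reads that align only to Mir196a-1. Since reads of the shared 5p form are left out, neither value gives the level of miR-196a-5p. The deposited opposite-strand counts of all 6 genes were 0 in both libraries.

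In the order Mir10a, Mir10b, Mir196b, Mir615, Mir196a-2 and Mir196a-1, 4 of the 5 pairs of neighbours had ranges that did not overlap, where the last 2 places hold for assigned reads only. The exception was Mir10a and Mir10b. The step from Mir10b to Mir196b was 2.26-fold between means, that from Mir196b to Mir615 was 3.25-fold, and that from Mir615 to Mir196a-2 was 7.91-fold. Divided by the length of the annotated hairpin gene, Mir10b (68 bases) stood above Mir10a (110 bases), with 2.17 against 1.74 CPM per base in replicate 2 and 1.07 against 0.917 in replicate 1. The order of the Mir10 genes therefore depends on the scale, and that of the others did not.

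**Figure D2:**
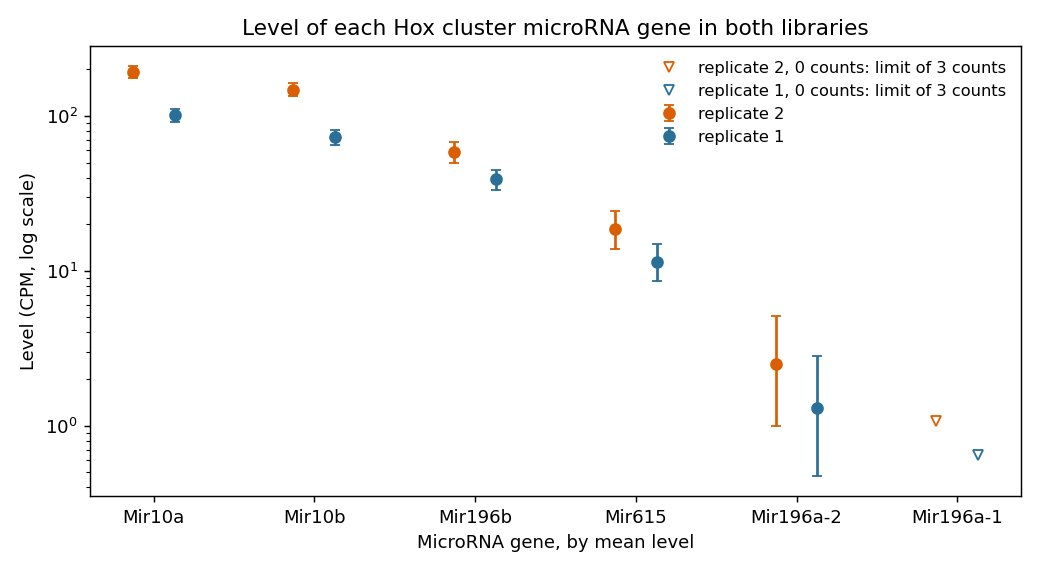
Level in CPM (log scale) of the 6 genes in replicate 2 and replicate 1, with 95% exact Clopper-Pearson intervals that cover counting error only; open triangles are the limit set by 3 counts where a gene had 0. Each of the 5 genes with reads has its higher value in replicate 2, and levels run from 192 CPM (Mir10a, replicate 2) down to 1.30 CPM (Mir196a-2, replicate 1).

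The following shares are of assigned reads and leave out every read of the shared miR-196a-5p form, so the Mir196, Hoxb and Hoxc shares may be too low, and the others too high, by an amount not known here. By sequence group, the Mir10 genes held 81.0% of the reads of the 6 genes in replicate 2 and 77.1% in replicate 1. The Mir196 genes held 14.6% in replicate 2 and 17.8% in replicate 1, and Mir615 held 4.43% and 5.08%. By cluster, Hoxb gave 45.8% of these reads in replicate 2 and 44.8% in replicate 1, all from Mir10a. Hoxd gave 35.2% and 32.3%, all from Mir10b. Hoxa, with Mir196b alone, gave 14.0% and 17.3%, and Hoxc, with Mir615 and Mir196a-2, gave 5.02% and 5.66%.

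The low level of Mir10 contrasts with that of its relatives outside the Hox clusters. Mir99a, Mir99b and Mir100 are related in sequence to Mir10 and have a seed of their own. Their 5p forms are shown for comparison, with the seed in capitals.
miR-99a-5p: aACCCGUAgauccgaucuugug
miR-99b-5p: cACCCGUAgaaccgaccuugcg
miR-100-5p: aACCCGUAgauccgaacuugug

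miR-10a-5p is 3 single-base changes, insertions or deletions from miR-100-5p, and the longest run they share is 11 bases, from base 7 of miR-10a-5p. That run starts inside the Mir10 seed, and the Mir10 seed itself is not found in miR-99a-5p, miR-99b-5p or miR-100-5p. Mir99a stood at 142138 CPM in replicate 2 and 143924 CPM in replicate 1. Its mean was 978-fold that of Mir10a. Mir100 stood at 45587 CPM in replicate 2 and 43919 CPM in replicate 1, with a mean 306-fold that of Mir10a, and Mir99b at 31913 and 29197 CPM, with a mean 209-fold that of Mir10a.

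The Mir196 seed has a similar neighbour in let-7, which is known for its rise as progenitors differentiate. The 7 bases of the Mir196 seed are found in let-7g-5p at bases 3 to 9, shifted by 1 from its own seed.
let-7g-5p: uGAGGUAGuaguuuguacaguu

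Of 12 let-7 genes listed, 10 were found by symbol, and together they stood at 40183 CPM in replicate 2 and 31773 CPM in replicate 1. The highest was Mirlet7g with 22193 CPM in replicate 2 and 18218 CPM in replicate 1, and its mean was 415-fold that of Mir196b. Mirlet7i followed with 12624 and 9892 CPM and Mirlet7d with 2571 and 1531 CPM. Reads of a let-7 form that several copies encode are likewise assigned to no gene.

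The replicates were first compared in these genes against counting noise alone. All 4 members with at least 10 reads in both libraries, Mir10a, Mir10b, Mir196b and Mir615, were called higher in replicate 2 by Fisher's exact test. The same call was made for 27.1% of the 380 genes with that many reads, and 54.2% were called in either direction. Each test set the gene's reads against all other assigned reads (two-sided, Benjamini-Hochberg adjusted over the 380 genes at 0.05). It compares these 2 libraries and no conditions.

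When the spread between the pools was also allowed for, 0 of the 4 members were called. That alternative was edgeR's exact test with the common dispersion of both libraries, which corresponds to a spread of 20.4% between pools. It called 4 of the 380 genes, and at an unadjusted p under 0.05 it picked 17 of them, Mir10a and Mir10b included. Its adjusted p was 0.796 for Mir10a, 0.763 for Mir10b, 1 for Mir196b and 1 for Mir615. The dispersion came from the same 2 libraries. The differences of these 4 members were thus called against counting noise and not against the typical spread between these pools. For Mir615 the call against counting noise held only with a minimum of reads.

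Mir10b had the largest difference of the 4, with 148 CPM in replicate 2 against 72.8 CPM in replicate 1, a log2 ratio (replicate 2 over replicate 1) of 1.02 ± 0.11 (counting SE; adjusted p = 2.9e-21, Fisher's exact test). Of the 380 genes, 6 had a higher ratio. Mir10a had a log2 ratio of 0.93 ± 0.09 (adjusted p = 1.7e-23, Fisher's exact test), with 9 genes above it. Mir615 had 0.70 ± 0.28, and its adjusted p of 0.0301 in Fisher's exact test moved to 0.0562 with all 746 detected genes tested. Mir196b had 0.59 ± 0.16 (adjusted p = 0.00045, Fisher's exact test), with 36 genes above it.

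All 4 members were also past 1.5-fold, which 8.16% of the 380 genes were while called higher in replicate 2. Mir196b, at 1.503-fold, was at 1.49-fold with TMM factors and 1.47-fold with DESeq2 size factors, which leaves 3 of the 4 past that threshold. Of the 380 genes, 7.37% with TMM factors and 6.58% with DESeq2 size factors were past it and called higher. The median log2 ratio of the 4 members was 0.81, against 0.04 over the 380 genes. For Mir196a-2, with 7 reads against 6, the ratio was 1.93-fold, with a counting interval on the log2 scale from -0.63 to 2.52, and it was not tested at the minimum of 10 reads.

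The members moved by amounts that were mostly not distinguishable from each other. Mir10b and Mir10a differed in log2 ratio by 0.09 (95% interval from counting error -0.18 to 0.37). Mir10b exceeded Mir196b by 0.43 (0.06 to 0.80), and this was the one interval of 6 pairs that left out 0, without adjustment for the number of pairs. Mir10a exceeded Mir196b by 0.34 (-0.02 to 0.69). The Mir10 relatives outside the clusters had log2 ratios of -0.02 for Mir99a, 0.05 for Mir100 and 0.13 for Mir99b. Of these, Mir100 and Mir99b were called higher in replicate 2 and Mir99a lower. The 10 let-7 genes found were all called higher in replicate 2 by Fisher's exact test, against 27.1% of the 380 genes. Their sum had a log2 ratio of 0.34, and Mirlet7d had 0.75, within the range of the members.

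**Figure D3:**
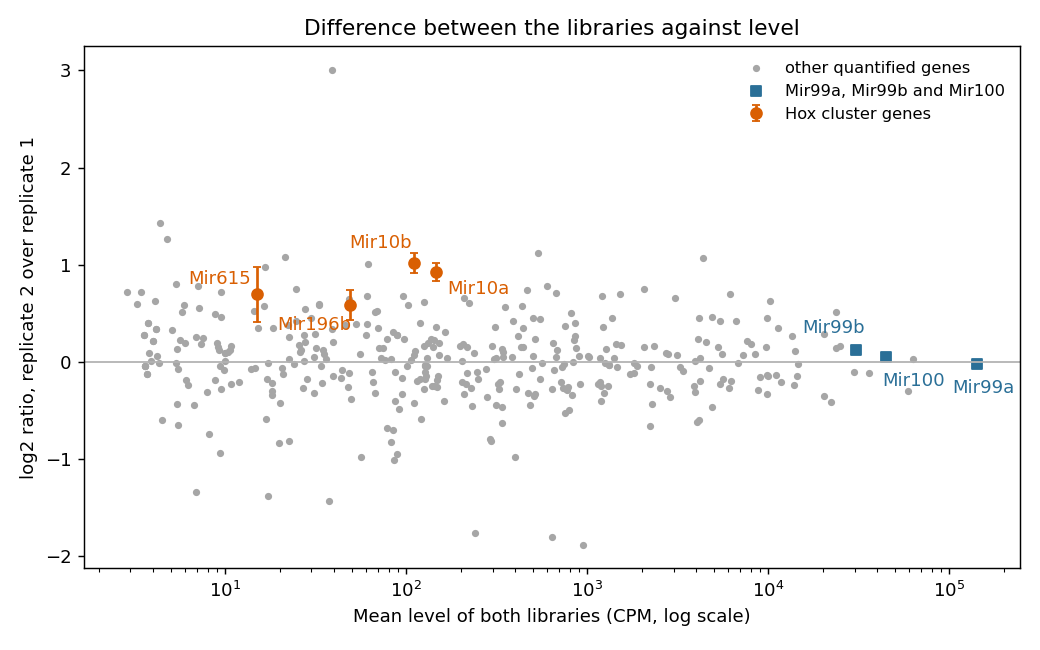
Log2 ratio of replicate 2 over replicate 1 against mean CPM (log scale) for the 380 genes with at least 10 reads in both libraries; bars on the Hox cluster genes are the counting SE. The 4 Hox cluster genes lie between 0.59 and 1.02, above the median of all genes at 0.04, and Mir99a, Mir99b and Mir100 lie between -0.02 and 0.13 at the right edge.

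Genes with levels most like those of the members in the 2 libraries were found by the distance in log2 CPM over both. For Mir10a these were Mir200b (153 CPM in replicate 2 and 99.4 CPM in replicate 1) and Mirlet7c-1 (165 and 129 CPM). For Mir10b they were Mirlet7a-2 (124 and 82.1 CPM) and Mir128-2 (119 and 73.9 CPM). Mir196b was closest to Mir1247 (58.8 and 37.6 CPM) and Mir199a-2 (52.0 and 40.0 CPM), and Mir615 to Mir294 (17.1 and 11.9 CPM) and Mir7654 (19.6 and 13.2 CPM). Likeness over 2 libraries rests mainly on level.

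Markers of other cell types were set beside the Hox cluster genes, since a dissected midbrain carries vessels, meninges and blood and may carry bordering tissue. The mesenchymal list of 7 genes summed to 23591 CPM in replicate 2 and 15707 CPM in replicate 1, with 6 genes called higher in replicate 2 and 0 lower. Its leading genes, Mir143 and Mir140, had 11351 and 5626 CPM in replicate 2, against 8284 and 4089 CPM in replicate 1. The epithelial list of 7 genes gave 3549 and 2764 CPM, again with 6 called higher and 0 lower, led by Mir203 (1639 and 1448 CPM) and Mir205 (849 and 657 CPM). These are calls of Fisher's exact test, which called 27.1% of all 380 genes higher in replicate 2. With edgeR's exact test, 0 genes of either list were called (1 mesenchymal and 0 epithelial genes at an unadjusted p under 0.05), and of all the marker lists it called only liver Mir122 (higher in replicate 2) and choroid plexus Mir204 and Mir1298 (lower).

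Of the 4 leukocyte markers found, 3 were called higher in replicate 2 and 1 lower, and the list summed to 769 CPM in replicate 2 and 607 CPM in replicate 1, led by Mir223 (420 and 283 CPM) and Mir155 (235 and 265 CPM). Endothelial Mir126a stood at 26243 CPM in replicate 2 and 23434 CPM in replicate 1. Liver Mir122 had 69.5 and 8.64 CPM, a log2 ratio of 3.01, which was larger than that of any member. The sensory organ list, led by Mir182 (2206 and 2285 CPM) and Mir183 (1867 and 1149 CPM), gave 4704 CPM in replicate 2 and 3898 CPM in replicate 1. The neuroendocrine list, led by Mir375 (758 and 441 CPM) and Mir7-1 (417 and 520 CPM), gave 1403 and 1165 CPM.

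Other lists were lower in replicate 2 or had similar sums. The 4 choroid plexus genes were all called lower in replicate 2, with 426 CPM in replicate 2 and 1446 CPM in replicate 1, led by Mir204 (286 and 995 CPM) and Mir1298 (110 and 372 CPM). The erythroid list of 3 genes, 1 called higher and 1 lower, gave 271 CPM in replicate 2 and 413 CPM in replicate 1, led by Mir451a (212 and 373 CPM) and Mir144 (29.6 and 25.7 CPM). The neural list had reads for all 15 genes found and summed to 12816 CPM in replicate 2 and 12658 CPM in replicate 1. Of its genes, 3 were called higher and 6 lower, and it was led by Mir137 (3564 and 4225 CPM) and Mir153 (3286 and 3512 CPM). The list was drawn up for neural tissue and not for a brain region, so it cannot tell midbrain from bordering neural tissue.

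In the skeletal muscle list, Mir206 had 22.8 CPM in replicate 2 and 22.2 CPM in replicate 1, Mir133b had 0 reads and 1 read, and Mir1a-1, Mir133a-1 and Mir133a-2, which have copies elsewhere, were listed at 0 in both libraries. The 5 muscle genes found summed to 22.8 CPM in replicate 2 and 22.5 CPM in replicate 1. The part of any of these tissues in the difference of the Hox cluster genes was not tested. The mesenchymal sum was 61.0-fold and the neural sum 39.5-fold that of the 6 Hox cluster genes. The neural list holds copies of Mir9, Mir124a, Mir128, Mir138, Mir218 and Mir219a, and the mesenchymal list holds copies of Mir199a. Reads of a form that several copies encode were assigned to no gene. These sums may therefore be too low by unknown amounts, and the lists cannot be ranked against each other.

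**Figure D4:**
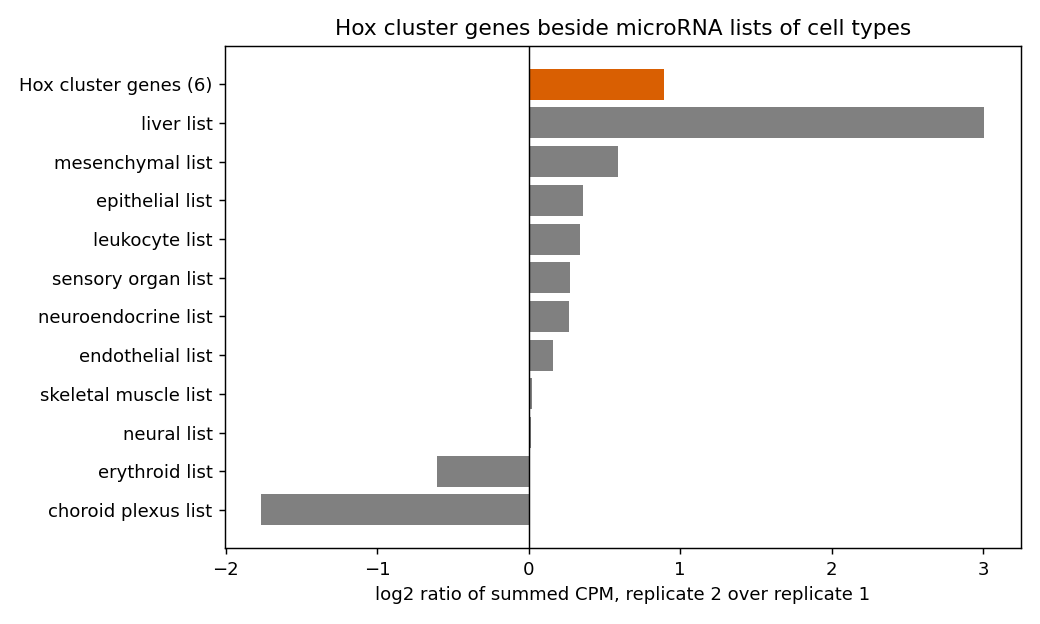
Log2 ratio of summed CPM, replicate 2 over replicate 1, for the 6 Hox cluster genes (orange) and for lists of microRNAs of cell types (grey, in order of their ratio). The Hox cluster sum has 0.89, between the liver list of Mir122 alone (3.01) and the mesenchymal list (0.59), while the neural list has 0.02 and the choroid plexus list -1.76.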

How the data were processed

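The deposited files hold raw counts of reads per microRNA gene for each library, not normalized. The authors derived these counts, per the deposited read-me texts, from alignments to mm10 with annotation M4. The aligner and counter were not given in the sources used here. Separate columns hold reads on either strand, the gene's own strand and the opposite strand; the own-strand counts were used. Rows that name no gene (unmapped, multimapping, no feature, ambiguous) held 58.2% of reads in replicate 2 and 56.9% in replicate 1 and stayed out of totals and tests.

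Of 1973 identifiers, 1894 matched GENCODE M21 on GRCm38, which gave symbols and positions; sequences came from RefSeq (GRCm38.p6), where mature forms were found for 6 genes and a hairpin for 5. CPM is the count per 1000000 own-strand gene counts. Intervals and the limit of 3 counts cover counting error only, as PCR reads are not independent molecules. With 1 group, edgeR's quasi-likelihood test had nothing to compare, so libraries were compared by Fisher's exact test (scipy 1.17.1). Fisher's exact test was checked on simulated data with counting noise only, without the spread between pools that these libraries have. Alternatives used edgeR 4.0.16 and DESeq2 1.42.0.

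The members, lists, tests and naming rule were chosen with earlier results of these data known. The rule names the 6 members, the relatives, the 3 most abundant let-7 genes, the 2 most abundant genes of each list and the 2 genes nearest to each member in log2 CPM. Genes not found by symbol were Mirlet7e, Mirlet7f-1, Mir9-1, Mir142 and Mir1a-2. The muscle genes other than Mir206 and Mir133b were named after their values were seen.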

Additional observations from a re-analysis of the deposited data

How the results depend on the processing

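The 4 members were called higher in replicate 2 with TMM factors, DESeq2 size factors, either-strand counts and at least 50 reads in both libraries. The same call was made for 26.6%, 23.4%, 27.6% and 34% of all genes tested, in that order. With no filter, 3 of 5 members were called higher, against 13% of all genes tested, and Mir615 and Mir196a-2 were not called. With edgeR's exact test and the common dispersion, the counts of calls fell to 0 of 4 members and 4 of 380 genes, against 206 of 380 by Fisher's exact test; this test allows for the spread between pools as well as counting noise. With the other alternatives, 199 to 214 genes were called in either direction, while the number tested ran from 300 (at least 50 reads) to 746 (no filter). The log2 ratios ranged over the alternatives from 0.89 to 0.93 for Mir10a, 0.98 to 1.02 for Mir10b, 0.55 to 0.59 for Mir196b and 0.66 to 0.70 for Mir615. The summed level was 419 CPM without replicate 1 and 225 CPM without replicate 2, and 314 to 322 CPM with the other scalings and strands. With all reads as the total, Mir10a stood at 61.8 CPM. Per base of the hairpin gene, Mir10b and Mir10a changed places and again 4 pairs of neighbours did not overlap. No paired analysis was possible because both libraries belong to 1 group. Depth limits Mir615, with at most 53 reads in a library. The Mir196a genes had fewer reads still, and at any depth the reads of their shared 5p form are assigned to no gene.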

Other observations

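Mir10a and Mir10b were among the 10 genes of 380 with a log2 ratio (replicate 2 over replicate 1) at or above that of Mir10a. The other 8 were named after their values were seen. Mir122 of liver had 3.01 ± 0.25 (counting SE), Mir199a-1 1.43 ± 0.55, Mir3474 1.27 ± 0.52, Mir483 1.12 ± 0.05, Mir486 1.08 ± 0.24, Mir214 1.07 ± 0.02, Mir146 1.01 ± 0.14 and Mir3064 0.98 ± 0.27. Mir214 and Mir199a-1 belong to the mesenchymal list, Mir486 to the erythroid list and Mir146 to the leukocyte list. The levels of the 10 genes ran from 6.42 CPM in replicate 2 and 2.38 CPM in replicate 1 for Mir199a-1 to 5888 and 2811 CPM for Mir214. Only Mir214 and Mir483 had a higher mean level than Mir10a. Mir483, an intronic microRNA of Igf2, had 728 CPM in replicate 2 and 335 CPM in replicate 1.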
